A study of Mus musculus with 6 samples.

Results

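The CD94/NKG2 receptors are C-type lectin receptors of NK cells and of antigen-experienced CD8 T cells. Their genes lie in the NK gene complex of mouse chromosome 6. The 7 genes described here, of 23284 in the deposited tables, were taken by symbol, and all 7 were found: Klrd1 (CD94), Klrc1 (NKG2A), Klrc2 (NKG2C), Klrc3 (NKG2E), Klre1, Klri1 and Klri2. Their RNA was measured by RNA sequencing in 6 libraries of T cells sorted from lymph nodes of C3H/HeJ mice, an inbred strain. All sorted cells carried CD3, CD8, CD44 and CXCR3, a surface phenotype of antigen-experienced CD8 T cells. They were parted into NKG2D+ and NKG2D- cells with 3 libraries each, and the populations came from 3 separate mice. The sources used here give no age, treatment or disease state of the mice.

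CD94 has no signalling tail of its own and reaches the cell surface paired with an NKG2 chain. With NKG2A it forms an inhibitory receptor, because NKG2A carries an immunoreceptor tyrosine-based inhibition motif (ITIM) that recruits the phosphatase SHP-1. With NKG2C or NKG2E it forms an activating receptor that signals through the adaptor DAP12. These pairs bind Qa-1b, a class Ib molecule that presents leader peptides of classical class I chains. KLRE1 pairs in a like way with KLRI1, an inhibitory chain, or with KLRI2, an activating one. NKG2D, the sorted molecule, is encoded by Klrk1, which lies inside the same gene cluster but forms a receptor without CD94.

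The Klrc genes are close copies, which bears on each of their values. The first 150 coding bases are shown because they hold the ITIM of Klrc1, which Klrc2 and Klrc3 lack in this stretch. They also show the near identity of Klrc2 and Klrc3 there. They are GENCODE M21 models of the GRCm38 assembly, read 5′ to 3′, and capitals mark the codons of an ITIM (isoleucine, valine, leucine or serine, then any residue, tyrosine, any pair of residues, and leucine, isoleucine or valine).
Klrc1: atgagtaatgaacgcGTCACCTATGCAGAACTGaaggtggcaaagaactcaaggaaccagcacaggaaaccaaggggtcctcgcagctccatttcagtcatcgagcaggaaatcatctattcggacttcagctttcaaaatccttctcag
Klrc2: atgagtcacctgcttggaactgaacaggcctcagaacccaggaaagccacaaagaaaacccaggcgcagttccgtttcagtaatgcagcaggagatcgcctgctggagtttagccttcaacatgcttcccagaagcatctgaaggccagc
Klrc3: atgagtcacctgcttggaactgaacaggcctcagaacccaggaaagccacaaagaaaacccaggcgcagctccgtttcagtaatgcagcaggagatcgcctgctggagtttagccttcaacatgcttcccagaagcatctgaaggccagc

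Klrc1 held 1 such motif in its first 70 codons, and Klrc2 and Klrc3 held 0. Klrc2 and Klrc3 differed at 1 of these 150 bases. Over the whole coding sequence, aligned bases were 95.8% identical between Klrc2 and Klrc3, 85.9% between Klrc1 and Klrc2 and 88.6% between Klrc1 and Klrc3. Klri1 held 2 of the motifs in its first 70 codons and Klri2 0, and their coding sequences were 85.5% identical. Of all 50-base stretches in the transcripts of a gene, 38.6% of those of Klrc1, 29.4% of Klrc2 and 38.6% of Klrc3 also occurred in another Klrc gene. With 100-base stretches these shares were 14.6%, 12.8% and 18.1%, and the sources used here do not give the read length. Klri1 shared 5.83% and Klri2 2.77% of their 50-base stretches with other genes. For Klrd1 and Klre1 no such stretch was shared with any other gene. Reads that could be placed in several genes were set aside in the deposited counts, so the separate levels of the Klrc genes are uncertain. For Klrd1 and Klre1 no such overlap was found among annotated transcripts. Sequence outside annotated transcripts and stretches shorter than 50 bases were not searched.

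The question was whether the RNA of this family differed between NKG2D+ and NKG2D- cells. It was higher in NKG2D+ cells for Klrd1, Klrc1, Klrc2, Klrc3 and Klre1, by 2.02-fold for the shared CD94 chain, by 5.88-fold for the inhibitory NKG2A, by 4.82-fold and 4.23-fold for the activating NKG2C and NKG2E, and by 9.73-fold for Klre1. Levels are given as CPM, the reads of a gene scaled to a common library size that was set by the trimmed mean of M-values. Fold changes and p-values come from edgeR's quasi-likelihood test over 12951 genes, with Benjamini-Hochberg adjustment over all of them. Of the 7 genes, 6 were tested and 5 passed an adjusted p of 0.05, all 5 as higher in NKG2D+ cells, where 1.65% of all genes tested were called higher. An unadjusted p under 0.05 was found for 21.1% of all genes tested, the share beside which the counts at that level below are to be read. Klri2 was tested and did not pass, and Klri1 had too few reads to be tested. On the same 6 genes DESeq2 called 6 (11.1% of all genes in either direction), limma-voom 3 (0.641%) and edgeR with a block for the mouse 4 (0.525%). Without NKG2D- library 3 edgeR called 0 of them, with 0.0607% of all genes called. In Klrd1, Klrc1, Klrc2, Klrc3 and Klre1 every NKG2D+ library lay above every NKG2D- library, as it did for 15.1% of all genes tested. Klri1 and Klri2 had the same order but are not set against that share. Klri1 was not tested, and Klri2, which is among the 6 called by DESeq2, passed the filter on low counts through its NKG2D+ libraries. In bulk RNA, more cells that express a gene and more RNA per cell cannot be told apart.

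Klrd1 encodes CD94, the chain that all CD94/NKG2 receptors share. Its level was 131, 168 and 164 CPM in NKG2D+ libraries 1, 2 and 3, and 70.7, 80.3 and 78.2 CPM in the NKG2D- libraries in that order. The groups were well apart, with a tight NKG2D- group and the lowest NKG2D+ value in library 1. The log2 fold change was 1.01 (SE 0.11, adjusted p = 0.0153 by edgeR), and same-numbered libraries differed by 1.85, 2.10 and 2.09 times. NKG2D- cells held 49.5% of the NKG2D+ level of Klrd1. The adjusted p was 0.0771 without NKG2D+ library 3 and 0.109, 0.0794 and 0.111 without NKG2D- libraries 1, 2 and 3, while the log2 fold change stayed between 0.95 and 1.12 in all fits with libraries left out.

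Klrc1 encodes NKG2A, the inhibitory partner of CD94. Its values were 58.1, 80.1 and 82.1 CPM in NKG2D+ libraries 1, 2 and 3 and 9.27, 14.3 and 13.8 CPM in NKG2D- libraries 1, 2 and 3. In both populations library 1 was the lowest. The lowest NKG2D+ library was 4.07 times the highest NKG2D- library. The log2 fold change was 2.56 (SE 0.21, adjusted p = 0.00714 by edgeR). Same-numbered libraries differed by 6.26, 5.62 and 5.94 times, a narrow range. NKG2D- cells held 17.0% of the NKG2D+ level. Without NKG2D- library 3 the adjusted p was 0.0599 with a log2 fold change of 2.63.

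Klrc2 encodes the activating chain NKG2C. It stood at 12.2, 15.9 and 18.1 CPM in NKG2D+ libraries 1, 2 and 3 and at 2.97, 3.04 and 3.57 CPM in NKG2D- libraries 1, 2 and 3. Library 1 was lowest and library 3 highest in both populations. The log2 fold change was 2.27 (SE 0.18, adjusted p = 0.00714 by edgeR). Without NKG2D- library 2 the adjusted p was 0.0510, and without NKG2D- library 3 it was 0.0579.

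Klrc3 encodes NKG2E, the other activating chain. It stood at 13.2, 16.9 and 24.9 CPM in the NKG2D+ libraries against 3.93, 3.96 and 5.10 CPM. Its order over libraries was that of Klrc2, with a wider spread in NKG2D+ cells, where the highest library was 1.88 times the lowest. The log2 fold change was 2.08 (SE 0.25, adjusted p = 0.0196 by edgeR). The adjusted p was 0.0670 without NKG2D+ library 3, 0.139, 0.112 and 0.111 without NKG2D- libraries 1, 2 and 3, and 0.0564 by limma-voom.

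Klre1 encodes the partner chain of the KLRI receptors. Its values were 3.03, 13.5 and 11.5 CPM in NKG2D+ libraries 1, 2 and 3 and 0.730, 0.778 and 1.34 CPM in NKG2D- libraries 1, 2 and 3. NKG2D+ library 1 stood apart, since the highest NKG2D+ library was 4.47 times the lowest, against 1.29 times for Klrd1 and 1.41 times for Klrc1. The log2 fold change was 3.28 (SE 0.59) and the adjusted p 0.0498 by edgeR, close to the threshold. Same-numbered libraries differed by 4.14, 17.4 and 8.56 times. With the replicate number as a block, which compares the populations within a mouse, the adjusted p was 0.0714, and it was 0.0831 without the filter on low counts and 0.145 by limma-voom. It was 0.153 without NKG2D+ library 3 and 0.225, 0.169 and 0.201 without NKG2D- libraries 1, 2 and 3. Of the tested NK-cell markers, some were low in NKG2D+ library 1 and others were not. S1pr5, which encodes an egress receptor, stood at 12.2 CPM there against 55.6 and 36.9 CPM in libraries 2 and 3. The transcription factor gene Eomes stood at 140 against 346 and 272 CPM, and the lectin-like receptor gene Klrb1c at 2.40 against 5.12 and 3.99 CPM. Itga2, an integrin gene, was highest there, at 26.0 against 20.1 and 19.9 CPM, and the activating receptor gene Ncr1 was nearly level, at 0.532 against 0.570 and 0.596 CPM. These 5 genes, all the tested NK-cell markers, were set beside Klre1 after their values were seen. Their part in the level of Klre1 was not tested.

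Klri1 and Klri2 encode the inhibitory and the activating partner of KLRE1 and were near the limit of detection. Klri1 had 12, 12 and 9 reads in NKG2D+ libraries 1, 2 and 3 and 0, 3 and 1 in NKG2D- libraries 1, 2 and 3. The 0 in NKG2D- library 1 allows a level of up to 0.0756 CPM (3 counts). Summed over the libraries these were 33 against 4 reads, a depth-scaled ratio of 5.78 with a 95% exact interval of 2.06 to 22.5 that covers counting error only. Klri2 had 46, 22 and 108 reads in the NKG2D+ libraries and 5, 6 and 2 in the NKG2D- libraries, or 0.700, 0.246 and 1.40 against 0.126, 0.101 and 0.0312 CPM. Its NKG2D+ libraries spread over 5.69 times, and same-numbered libraries differed by 5.56, 2.42 and 44.9 times. For Klri2 the fitted log2 difference was 3.22 (SE 0.79), and the adjusted p of 0.0878 by edgeR missed the threshold. It was 0.00451 by DESeq2 and 0.0127 without NKG2D+ library 2. Klri2 passed the filter on low counts through its NKG2D+ libraries.

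**Figure D1:**
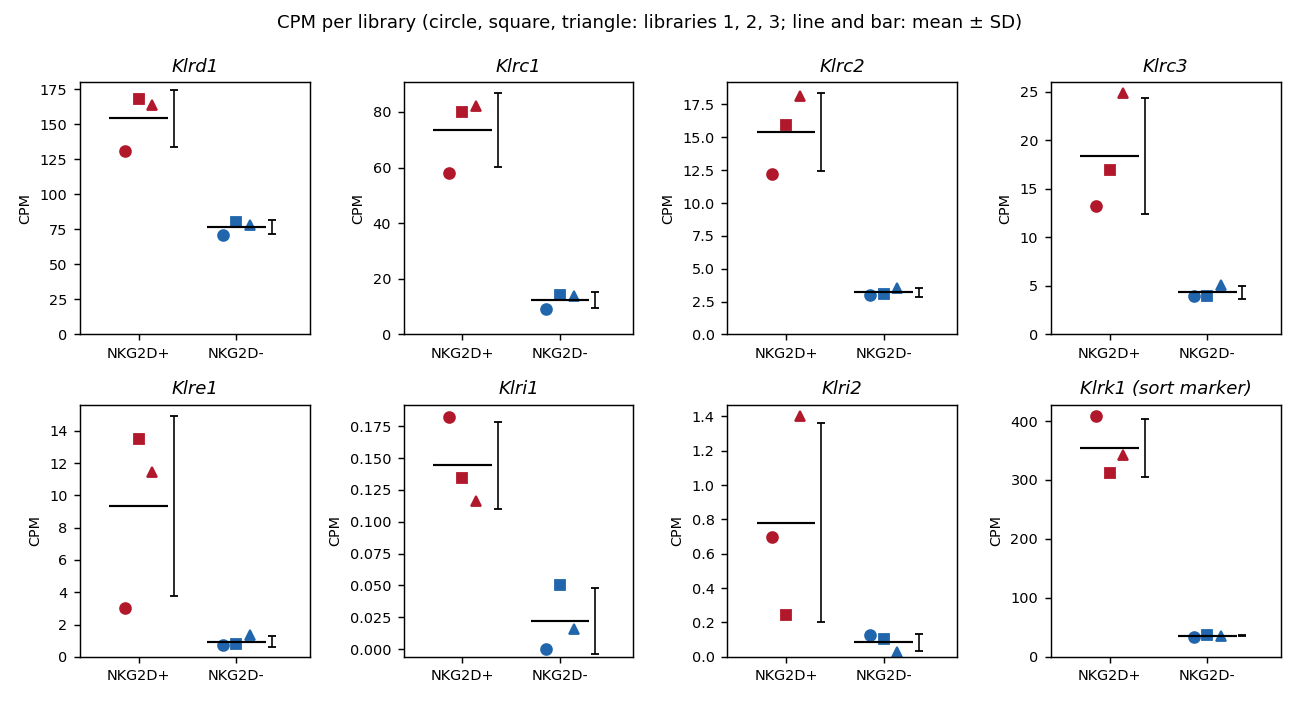
CPM (y axis, linear) of the 7 family genes and of the sort marker gene Klrk1 in each library, with symbols for libraries 1, 2 and 3 and mean ± SD over 3 libraries. Klrd1 is the gene with the smallest fold difference (154 ± 20.4 against 76.4 ± 5.06 CPM), and the NKG2D+ libraries differ most in proportion for Klre1 and Klri2 (highest over lowest 4.47 and 5.69 times).

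Comparing genes needs a scale per length of transcript, and the gene models of the authors' counting are not known. With the longest and the shortest coding transcript of GENCODE M21, Klrd1 had 168 to 263 CPM per kilobase in NKG2D+ and 83.1 to 130 in NKG2D- cells. Klrc1 had 37.0 to 109 in NKG2D+ and 6.27 to 18.4 in NKG2D- cells, and Klrc3 25.7 to 25.8 and 6.05 to 6.08. The corresponding levels of Klrc2 were 5.48 to 21.8 and 1.14 to 4.52. Klre1 had 7.22 and 0.734, Klri1 0.172 and 0.0264 and Klri2 0.200 and 0.0220. By both lengths Klrd1 had the highest RNA level by counted reads in each population. Reads of stretches shared between Klrc genes were left out of the counts, which can lower the Klrc levels. The order of the genes is therefore not settled. Klrc1 followed in both, although in NKG2D- cells its lower bound lay close to Klrc3. The order of Klrc2 and Klre1 changed with the length used in NKG2D+ cells.

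The balance of the chains was compared by their ratios. Ratios of read counts within a library need no scaling for depth, and the change of a ratio between populations does not depend on gene length. Klrc1 reads per Klrd1 read were 0.444, 0.476 and 0.502 in NKG2D+ libraries 1, 2 and 3 and 0.131, 0.177 and 0.177 in NKG2D- libraries 1, 2 and 3. The NKG2D+ ratios were all above the NKG2D- ratios, and the difference of mean log2 ratios was 1.56, or 2.95-fold (exact permutation test, two-sided, p = 0.1 with 3 libraries a group). Klrc2 reads per Klrd1 read were 0.0932, 0.0947 and 0.111 against 0.0421, 0.0379 and 0.0457, again without overlap, with a difference of 1.25 on the log2 scale (exact permutation p = 0.1). With 3 against 3 libraries 0.1 is the smallest p this test can give, and adjusted over the 3 ratios compared both were 0.15. No p under 0.05 can be reached for these ratios.

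Between Klrc1, of the inhibitory chain, and Klrc2, of an activating chain, the balance was closer. The same ratio with Klrc3, of the other activating chain, was not computed. Klrc1 reads per Klrc2 read were 4.76, 5.03 and 4.53 in the NKG2D+ libraries against 3.12, 4.68 and 3.87. These groups overlapped, and the difference was 0.31 on the log2 scale (exact permutation test, two-sided, p = 0.2 and adjusted 0.2). Of all Klrc reads, Klrc1 held 69.6%, 70.9% and 65.6% in the NKG2D+ libraries against 57.3%, 67.1% and 61.4%.

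**Figure D2:**
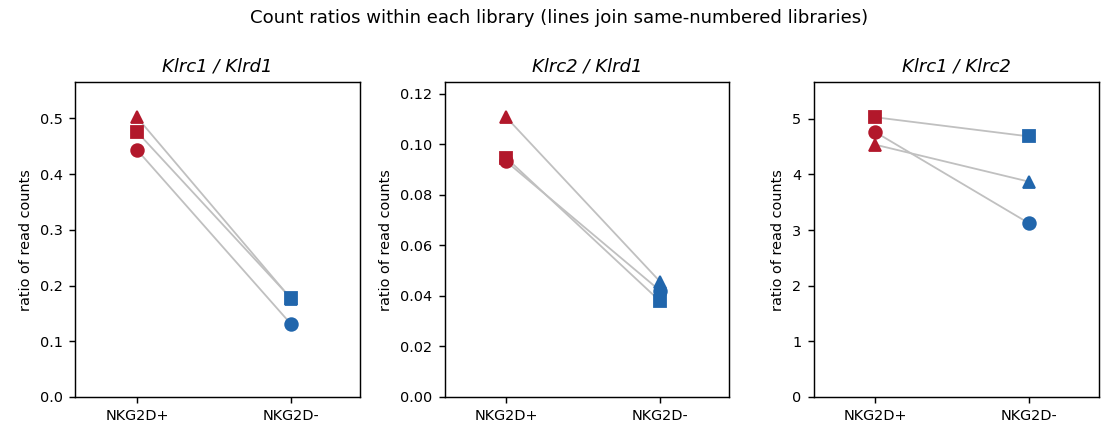
Ratios of read counts within each library (y axes, linear from 0), with lines joining same-numbered libraries. Klrc1 and Klrc2 per Klrd1 are higher in all 3 NKG2D+ libraries (means 0.474 against 0.162 and 0.0996 against 0.0419), while Klrc1 per Klrc2 overlaps between the populations.

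The family genes were neighbours, and the genes around them were read in the same way. In the RefSeq gene order of GRCm38 the cluster runs Klre1, Klrd1, Klrk1, Klrc3, Klrc2, Klrc1, Klri1, Klri2. Klrk1, the sort marker gene in its middle, stood at 354 ± 49.7 against 35.9 ± 1.35 CPM (SD, n = 3), a difference that the sort set. NKG2D- cells held 10.1% of its NKG2D+ level, 10.2% of that of Klre1 and 20.7% and 23.6% of those of Klrc2 and Klrc3. Of the 5 tested genes on each side of the cluster, 0 of 10 passed the test (edgeR; 5 had an unadjusted p under 0.05, DESeq2 called 3 and limma-voom 0). On the Klre1 side Gabarapl1, an autophagy gene, differed by 2.71 on the log2 scale (adjusted p = 0.0661 by edgeR) and Clec12a, a myeloid lectin receptor gene, by 3.93 (adjusted p = 0.0960). Cd69, an early activation receptor gene, lay at -0.23 there, Clec9a, a dendritic cell lectin receptor gene, at -1.55 (adjusted p = 0.129) and 2310001H17Rik at 0.30. On the far side Klra5, Klra9, Klra7 and Klra3, genes of the Ly49 receptors, and Magohb lay between -0.97 and 1.40.

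**Figure D3:**
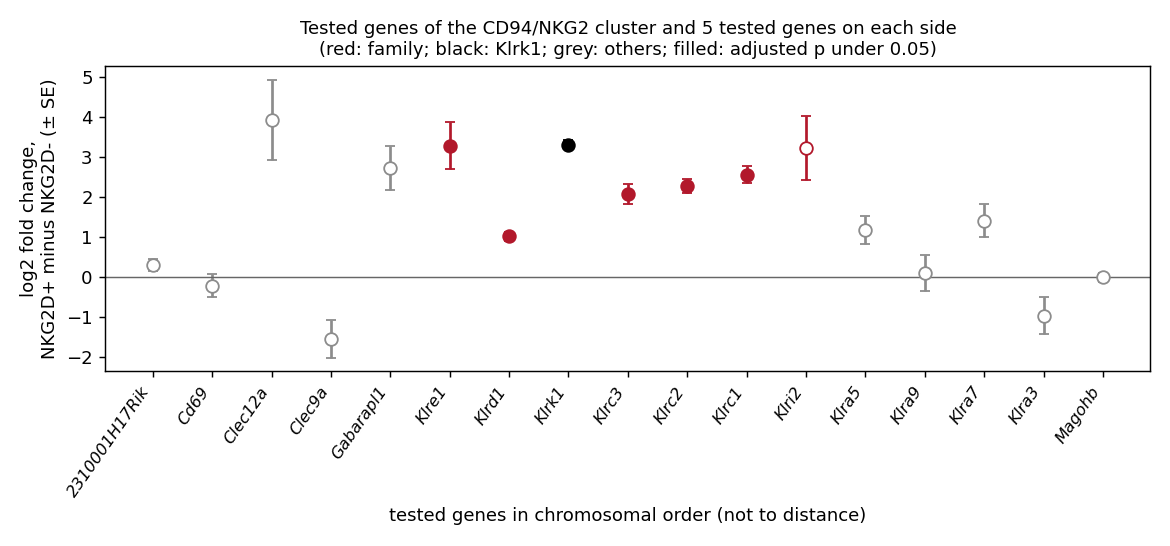
Log2 fold change (NKG2D+ minus NKG2D-, ± SE) of the tested genes of the cluster and 5 tested genes on each side, in chromosomal order and not to distance. Filled symbols have an adjusted p under 0.05: Klre1, Klrd1, Klrk1, Klrc3, Klrc2 and Klrc1 are filled, and Klri2 and the 10 flanking genes are open.

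The start regions of the Klrc genes are shown because these genes differed in the same direction. RefSeq windows of GRCm38.p6 hold 300 bases, from 250 before to 50 after the annotated start, and 5 of the 7 genes had one. Klrd1 and Klri2 had none. Capitals mark matches, on either strand, to TGTGGT (a RUNX core), GGAAAA (an NFAT core) and TGANTCA (AP-1). Matches to GGTGTGA (T-box), CCGGAAGT (ETS) and TTCNNNGAA (STAT) were searched as well and none was found in the 3 windows.
Klrc1, chr6:129678924-129679223, minus strand: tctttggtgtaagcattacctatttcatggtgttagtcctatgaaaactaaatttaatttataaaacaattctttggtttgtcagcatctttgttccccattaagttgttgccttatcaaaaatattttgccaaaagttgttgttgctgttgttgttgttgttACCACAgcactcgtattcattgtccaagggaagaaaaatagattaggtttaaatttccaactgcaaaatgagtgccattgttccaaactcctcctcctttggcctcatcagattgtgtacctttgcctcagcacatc
Klrc2, chr6:129660507-129660806, minus strand: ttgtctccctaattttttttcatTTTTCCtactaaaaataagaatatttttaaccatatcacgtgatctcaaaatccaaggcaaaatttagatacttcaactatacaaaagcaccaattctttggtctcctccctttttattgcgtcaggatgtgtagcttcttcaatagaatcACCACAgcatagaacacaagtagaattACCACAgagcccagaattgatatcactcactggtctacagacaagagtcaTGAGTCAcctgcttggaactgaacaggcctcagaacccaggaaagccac
Klrc3, chr6:129643239-129643538, minus strand: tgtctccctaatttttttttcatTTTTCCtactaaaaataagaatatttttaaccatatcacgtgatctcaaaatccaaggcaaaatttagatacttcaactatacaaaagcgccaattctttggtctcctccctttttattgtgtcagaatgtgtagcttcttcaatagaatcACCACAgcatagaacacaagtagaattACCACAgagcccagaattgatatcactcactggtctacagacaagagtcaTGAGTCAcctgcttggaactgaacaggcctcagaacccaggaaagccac

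The windows of Klrc2 and Klrc3 were 99.0% identical over aligned bases, and that of Klrc1 was 65.8% and 67.4% identical to them. By the same alignment the Klrc1 window was 68.8% identical to that of Klri1 and 70.7% and 70.3% to those of Klre1. Its values against Klrc2 and Klrc3 therefore show no closer likeness. All 3 held the RUNX core, 1 time in Klrc1 and 2 times in Klrc2 and Klrc3, as did 16.8% of 32851 RefSeq windows. Klrc2 and Klrc3 are near copies here, so the 3 are not separate cases. The windows of Klre1 and Klri1 are not shown. Klri1 held no RUNX core. Klre1 held it in the window that begins at chr6:129577963 and not in the window that begins at chr6:129578036. The NFAT core, found in Klrc2, Klrc3 and Klri1, occurred in 23.4% of all windows and the AP-1 letters in 7.81%. In Klrc2 and Klrc3 the AP-1 match overlaps the first coding bases, since the annotated start of these windows is the start of the coding sequence. RefSeq has another start for Klrc2, whose window (chr6:129660547-129660846) lies farther upstream and holds the same matches. These matches are letters in a window and say nothing of whether a factor binds.

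Of the genes through which the receptors signal, 0 of 13 passed the test (edgeR; 4 had an unadjusted p under 0.05, DESeq2 called 3 and limma-voom 0), with a median log2 fold change of 0.15 against -0.01 over all genes tested. Tyrobp, which encodes DAP12, the adaptor of the activating pairs, had 2.08 ± 0.125 CPM in NKG2D+ against 1.85 ± 0.101 CPM in NKG2D- cells. Hcst, which encodes DAP10, the adaptor of NKG2D, stood at 105 ± 13.3 against 93.6 ± 10.5 CPM (SD, n = 3). Ptpn6, which encodes SHP-1, stood at 580 ± 25.9 against 644 ± 40.0 CPM (log2 fold change -0.15, adjusted p = 0.328 by edgeR). Fcer1g, another adaptor gene, had the smallest p of the list, at 1.50 ± 0.290 against 0.383 ± 0.179 CPM (log2 fold change 1.93, adjusted p = 0.0611).

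The ligand side was expressed in both populations, and 0 of 12 genes of Qa-1b, of class I chains and of peptide loading passed the test (edgeR; 5 had an unadjusted p under 0.05, DESeq2 called 2 and limma-voom 0). H2-T23, which encodes Qa-1b, had 453 ± 74.4 against 359 ± 4.50 CPM in the NKG2D- population (log2 fold change 0.33, SE 0.12, adjusted p = 0.172). H2-D1, a class I gene, had the smallest p of the list, at 601 ± 122 against 399 ± 11.1 CPM (log2 fold change 0.59, adjusted p = 0.0840). Class I genes resemble each other in sequence, which leaves the level of each uncertain. The median of the list was 0.23.

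Of 27 other killer-cell lectin-like genes in the files, 8 were tested and 0 passed (edgeR; 4 had an unadjusted p under 0.05, DESeq2 called 1 and limma-voom 0), with log2 fold changes from -0.97 to 1.40, of which 7 were positive. Klra7, a Ly49 gene, had the smallest p, at 0.606 ± 0.261 against 0.225 ± 0.0630 CPM (adjusted p = 0.126). Whether the family differs from these genes was not tested. Of 10 receptor genes for cytokines known to raise CD94/NKG2A on T cells, 0 passed (edgeR; 4 had an unadjusted p under 0.05, DESeq2 called 3 and limma-voom 0), with a median of 0.14. Il12rb2, a chain of the IL-12 receptor, had the smallest p, at 6.40 ± 2.58 against 1.68 ± 0.478 CPM (log2 fold change 1.92, adjusted p = 0.0536). Il2rb, a chain shared by the IL-2 and IL-15 receptors, stood at 1359 ± 19.4 against 1360.3 ± 247 CPM.

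The genes whose log2 CPM followed that of Klrd1 most closely over the 6 libraries, among 9460 genes with a mean of at least 5 CPM, were Ctla2b (r = 0.998), Heatr7a (0.995), Klrc1 (0.994), the granzyme gene Gzma (0.991) and the mitotic checkpoint gene Bub1b (0.991). For Klrc1 they were the myosin gene Myo1f (r = 0.996), the death ligand gene Fasl (0.994), Klrd1 (0.994), Gzma (0.991) and Klrc2 (0.991). The points share their libraries and fall into the 2 populations, so any gene that differs between them in the same direction follows along. Klrk1 ranked 42 for Klrd1 and 32 for Klrc1. Klre1 ranked 22 and 113.

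Gene counts per library ran from 63232698 to 89184611 in NKG2D+ and from 41168816 to 67315805 in NKG2D- cells, so that 1 read was worth 0.0112 to 0.0252 CPM. T-cell markers were present throughout, with summed CPM of 7 genes of 3663 to 5346 in NKG2D+ and 3844 to 4146 in NKG2D- libraries. Of 7 NK-cell markers, Klra4 was at 0 in all libraries and Klra8 had a read in 1 NKG2D- library. Whether reads of C3H/HeJ mice can match Klra4 and Klra8 in build mm9 was not tested. Ncr1, the most specific of the 7 markers, lay between 0.532 and 0.596 against 0.126 and 0.406 CPM. Klrb1c lay between 2.40 and 5.12 against 1.34 and 2.62 CPM. The list's sum, mostly Eomes, ran from 182 to 427 against 304 to 332 CPM. Of 5 tested, 1, Itga2, passed edgeR's test as higher in NKG2D+ cells, and 3 had an unadjusted p under 0.05. DESeq2 and limma-voom called 1 each. The log2 fold change was -0.20 for Eomes and between 0.86 and 1.48 for the other tested genes. Summed CPM of 10 B-cell markers was 399 to 625 in NKG2D+ and 114 to 293 in NKG2D- libraries. Cd22, the largest part, held 147, 200 and 207 CPM in NKG2D+ libraries 1, 2 and 3. In the NKG2D- libraries Cd22 held 58.0, 113 and 115 CPM in that order. It was lowest among NKG2D+ libraries in library 1, where the other markers of the list were highest. Summed CPM of 10 myeloid and dendritic cell markers was 18.1 to 35.5 against 12.3 to 13.6. Of 8 markers of innate-like T cells, 6 were matched and their sum was 10.5 to 18.3 against 1.94 to 8.40 CPM. In these 3 lists no gene passed edgeR's test, with 8 of 10, 5 of 9 and 2 of 3 tested genes at an unadjusted p under 0.05, and DESeq2 called 3, 3 and 1 and limma-voom 0. No matched marker of these lists was at 0 in all libraries. Their part in the differences of the CD94/NKG2 genes was not tested. For 4 CD4 T-cell markers the sums overlapped, at 44.4 to 123 against 47.8 to 55.9 CPM, but the genes differed in direction. None passed edgeR's test, 3 had an unadjusted p under 0.05, DESeq2 called 3 and limma-voom 0. The log2 fold changes were -1.81 for Foxp3 (adjusted p = 0.0687 by edgeR), 3.44 for Cd40lg (adjusted p = 0.124), 0.87 for Zbtb7b (adjusted p = 0.0870) and -0.07 for Cd4.

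**Figure D4:**
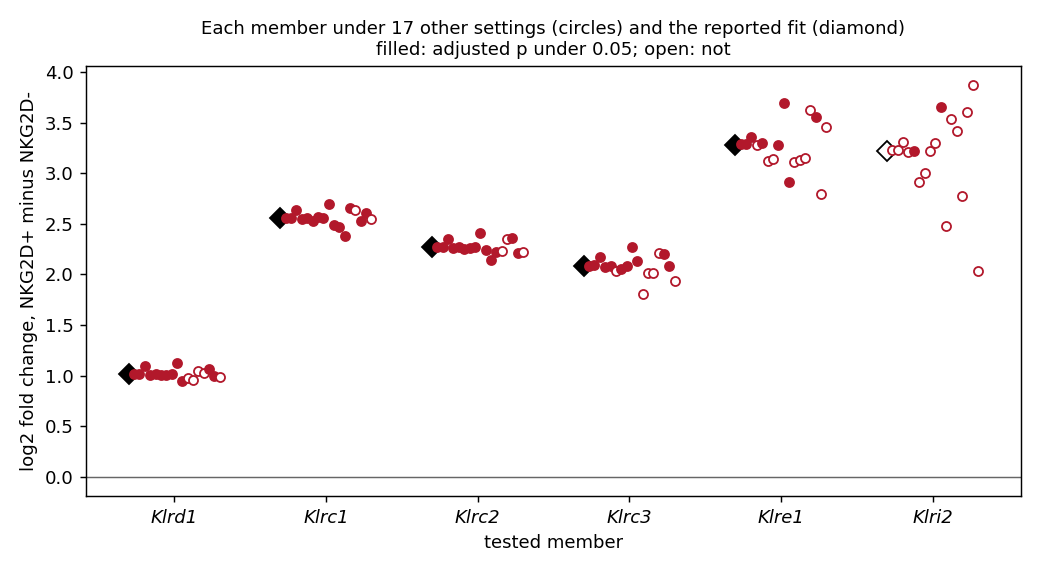
Log2 fold changes (y axis) of the 6 tested family genes in the reported fit (diamond) and under 17 other settings of normalisation, filter, test, block and libraries left out (circles), filled where the adjusted p is under 0.05. All values are above 0, from 0.95 to 1.12 for Klrd1 and from 2.38 to 2.70 for Klrc1, with the widest range for Klri2 (2.04 to 3.87). Klri2 passed the filter on low counts through its NKG2D+ libraries, so its direction adds no support.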

How the data were processed

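The authors deposited a table of raw counts for each library. The submitters' processing notes list TopHat2 2.0.4, CASAVA 1.8.2 and build mm9. The sources used here do not name the program that counted reads, its annotation or its strand setting. Each table holds 23284 genes, and 5 summary counts that entered neither library sizes nor tests. Among all counted reads, 19.7% to 26.2% are listed in the deposited tables as not uniquely aligned, outside the gene counts.

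Counts were tested in R 4.3.3 with edgeR 4.0.16 (quasi-likelihood, TMM, robust fits, filterByExpr with a minimum count of 10 and total of 15, group as the only term). SE is the log2 fold change divided by the square root of F. Alternatives used DESeq2 1.42.0 and limma 3.58.1. The script was tested on simulated data. The series text names 3 mice, so equal replicate numbers were read as 1 mouse, and their deviations from group means correlated across genes with r = 0.25, 0.20 and 0.38, genes not being independent replicates. Libraries of a group differed by a chi-square of at least 40.7 per degree of freedom, so none was a copy.

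The members and gene lists were chosen with earlier results of these data known. Named genes are the members, Klrk1, the genes of each list called or, with none called, that of smallest p, the flanking genes and the 5 most similar genes to Klrd1 and Klrc1 (Pearson r of log2 of CPM plus 0.5). Tyrobp, Hcst, Ptpn6, H2-T23, Il2rb and marker genes given by name were chosen after their values were seen. Klraq1, whose symbol starts like the lectin genes, is no lectin gene and was left out of that list. Sequences come from tables of GRCm38, a build of the C57BL/6 strain and not the build of the counts. Differences of C3H/HeJ mice from either build in these genes, and their effect on the counts, were not tested.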

Additional observations from a re-analysis of the deposited data

How the results depend on the processing

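The 5 family genes called in the reported fit kept a positive log2 fold change under the 17 alternatives, while calls depended on the libraries. Klri2 did so as well, but it passed the filter on low counts through its NKG2D+ libraries, so its direction adds no support. Genes called numbered 261 and family genes 5. DESeq2 called 1442 and 6, limma-voom 83 and 3, and the replicate block, a paired fit within mice, 68 and 4, losing Klre1 alone among the family. With single libraries or same-numbered pairs left out, all calls ranged from 0 to 1312 and family calls from 0 to 6. Family calls were 0 without NKG2D- library 3 (8 of all genes called). They were also 0 without both libraries 3 (0 of all genes, 971 at an unadjusted p under 0.05). Each time 6 family genes, Klri2 included, had an unadjusted p under 0.05. In the latter fit the log2 fold change of Klrc1 was 2.55 (adjusted p = 0.246).

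With total counts alone 1 signalling gene and 2 cytokine receptor genes were called higher, without the filter 2 cytokine receptor genes, and by DESeq2 3 signalling, 2 ligand, 1 other lectin and 3 cytokine receptor genes. With libraries left out these 4 lists ranged from 0 to 1, 0 to 3, 0 to 1 and 0 to 3. The 3 count ratios kept their direction under all alternatives (paired exact permutation p = 0.25, the smallest 3 pairs allow), with differences of 1.56, 1.25 and 0.31 on the log2 scale. The cause was not tested. With 1 library left out, calls over all genes rose to 543 and 1312 without NKG2D+ libraries 1 and 2 and were 15, 21, 13 and 8 without NKG2D+ library 3 and NKG2D- libraries 1, 2 and 3. Depth limits Klri1 and Klri2.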
